A study of Mus musculus with 10 samples.

Results

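Accessibility at 107 open chromatin regions of 8 Notch pathway genes was examined in group 2 innate lymphoid cells (ILC2s) of 5 mouse tissues, out of 50039 regions in the whole data set. The genes were *Notch1*, *Notch2*, *Rbpj*, *Maml2*, *Maml3*, *Dtx1*, *Nrarp*, and *Hes1*. A region belonged to a gene when its centre lay inside the gene or when the nearest RefSeq transcription start site (TSS) was one of that gene. By this rule *Rbpj* had 26 regions, *Maml3* 24, *Maml2* 20, *Notch2* 19, *Hes1* 6, *Notch1* 5, *Dtx1* 4, and *Nrarp* 3. *Dtx1* was chosen by its accessibility in the small intestine, so its values in that tissue are given as a description without a test.

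In Notch signaling, a ligand on a neighbouring cell binds a Notch receptor, and proteases then release the intracellular domain of the receptor. This domain enters the nucleus, where it joins the DNA-binding protein RBPJ and a coactivator of the mastermind-like (MAML) family on target genes such as *Hes1*, *Nrarp*, and *Dtx1*. The NRARP protein in turn limits the complex, and Deltex1, the product of *Dtx1*, is a ubiquitin ligase that binds the intracellular domain. Notch signals act early in lymphoid development, and the pathway has been studied in innate lymphoid cell precursors and in the plasticity of ILC2s.

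ATAC-seq, in which the Tn5 transposase inserts adapters into open chromatin, was run on ILC2s sorted from lung, pancreas, bone marrow (BM), and the small (SI) and large intestine (LI) of male C57BL/6 mice at an age of 6 weeks, with 2 libraries per tissue. Each library came from 50000 sorted cells, for which 16 mice were pooled for BM, lung, or pancreas and 10 mice for either intestine. The mice were untreated as far as the labels state, and lineage-positive cells (CD3, B220, CD11b, CD11c, FcεRI) were left out of all gates. BM cells were gated as ST2+CD25+. Cells of LI, lung, and pancreas were gated as CD45+CD127+ST2+CD25+, and cells of SI as CD45+CD127+KLRG1+ with a reduced Thy1 level and without the use of ST2. BM was sorted on another machine than the other tissues. Gate and tissue cannot be told apart for BM and SI, nor sorter and tissue for BM, nor pool size and intestinal origin. The methods call the libraries of a tissue biological duplicates without saying whether each had its own pool of mice, so p-values measure the spread between these libraries, which may be technical in part.

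Regions of *Dtx1*, *Rbpj*, *Maml2*, and *Notch2* are shown by their central 300 bases on the plus strand of mm10. The 3 *Dtx1* regions were high in SI, and the others stand for contrasts described in the following paragraphs, namely low BM, high lung, or high BM. They are examples, and some regions not shown had wider ranges. Capitals mark matches on either strand to short core letters of factors known to act in lymphocytes, namely RBPJ, GATA, RUNX, AP-1, and ETS proteins. The letters searched for RBPJ were TGGGAA as the core and GTGGGAA as the extended form, which contains the core. AGATAA was searched for GATA and TGTGGT for RUNX. The AP-1 letters were TGANTCA, and those of ETS were CAGGAAG.
*Dtx1* intron 2, 2.6 kb from the TSS, chr5:120708967-120709266: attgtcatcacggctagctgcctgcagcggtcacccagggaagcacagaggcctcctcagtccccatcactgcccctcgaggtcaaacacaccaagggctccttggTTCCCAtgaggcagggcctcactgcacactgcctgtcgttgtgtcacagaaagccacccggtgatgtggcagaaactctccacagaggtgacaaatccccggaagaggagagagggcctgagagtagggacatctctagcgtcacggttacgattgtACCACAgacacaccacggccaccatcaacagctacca
*Dtx1* intron 2, 14.6 kb from the TSS, chr5:120696950-120697249: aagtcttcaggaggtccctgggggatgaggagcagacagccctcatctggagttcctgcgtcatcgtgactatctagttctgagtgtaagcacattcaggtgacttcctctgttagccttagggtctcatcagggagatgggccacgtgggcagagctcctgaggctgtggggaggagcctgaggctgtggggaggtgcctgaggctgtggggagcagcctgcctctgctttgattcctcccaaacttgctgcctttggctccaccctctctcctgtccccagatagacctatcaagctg
*Dtx1* intron 3, 25.7 kb from the TSS, chr5:120685773-120686072: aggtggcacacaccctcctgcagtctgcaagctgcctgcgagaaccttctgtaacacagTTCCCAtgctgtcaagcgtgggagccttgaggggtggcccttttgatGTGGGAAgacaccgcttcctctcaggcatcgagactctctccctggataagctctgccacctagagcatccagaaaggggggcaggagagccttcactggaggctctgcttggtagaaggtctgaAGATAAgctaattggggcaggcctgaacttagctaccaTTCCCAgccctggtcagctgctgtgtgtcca
*Rbpj*, 141.9 kb upstream, chr5:53413749-53414048: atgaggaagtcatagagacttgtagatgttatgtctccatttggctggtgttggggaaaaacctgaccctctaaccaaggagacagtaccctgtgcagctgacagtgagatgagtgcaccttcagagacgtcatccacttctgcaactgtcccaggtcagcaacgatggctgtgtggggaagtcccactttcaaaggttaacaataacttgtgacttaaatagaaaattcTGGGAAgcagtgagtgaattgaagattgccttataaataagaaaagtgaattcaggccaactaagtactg
*Rbpj*, 46.2 kb upstream, chr5:53509478-53509777: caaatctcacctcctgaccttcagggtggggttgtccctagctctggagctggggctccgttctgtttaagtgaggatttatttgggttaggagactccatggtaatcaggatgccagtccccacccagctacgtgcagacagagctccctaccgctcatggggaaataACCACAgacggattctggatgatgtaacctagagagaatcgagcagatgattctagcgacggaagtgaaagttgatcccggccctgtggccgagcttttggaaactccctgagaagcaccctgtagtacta
*Maml2* intron 3, chr9:13701777-13702076: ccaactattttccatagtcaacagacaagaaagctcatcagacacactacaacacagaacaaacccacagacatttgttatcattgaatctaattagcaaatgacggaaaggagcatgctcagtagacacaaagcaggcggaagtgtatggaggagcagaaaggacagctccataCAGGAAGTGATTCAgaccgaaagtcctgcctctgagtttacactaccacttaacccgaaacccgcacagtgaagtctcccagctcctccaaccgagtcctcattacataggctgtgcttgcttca
*Notch2* intron 5, chr3:98082222-98082521: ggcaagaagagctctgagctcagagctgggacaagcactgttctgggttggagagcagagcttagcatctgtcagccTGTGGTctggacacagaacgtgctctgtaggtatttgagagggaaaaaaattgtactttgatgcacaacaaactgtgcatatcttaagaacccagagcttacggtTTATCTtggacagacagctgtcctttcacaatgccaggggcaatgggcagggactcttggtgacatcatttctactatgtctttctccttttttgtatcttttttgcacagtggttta
The window in *Dtx1* intron 3 held 3 RBPJ cores, 1 of them extended, and 1 GATA match. The *Dtx1* intron 2 window nearer to the TSS held 1 RBPJ core and 1 RUNX match, and the other intron 2 window held none of the listed letters. The distal *Rbpj* window held 1 RBPJ core, and the window 46.2 kb upstream held 1 RUNX match. The *Maml2* window held an ETS match directly followed by an AP-1 match, and the *Notch2* window held 1 RUNX and 1 GATA match. Among the central 300 bases of all 50039 regions, 21.2% held the RBPJ core, 5.95% its extended form, 17.2% the GATA, 29.1% the RUNX, 18.3% the AP-1, and 19.9% the ETS letters. Of the 107 member regions, 35 (32.7%) held the RBPJ core in this window, 9 (8.41%) the extended form, 17 (15.9%) GATA, 42 (39.3%) RUNX, 29 (27.1%) AP-1, and 19 (17.8%) ETS. These shares are a description and were not tested.

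Total counts lay between 10282987 and 32797872 per library, so that 1 CPM (counts relative to a total that was scaled by TMM, the trimmed mean of M-values) stood for 9.27 to 36.2 reads. Both libraries of a tissue differed beyond the noise of counting, with a chi-square per degree of freedom of 12.8 to 56. Of 12 ILC2 marker genes, 11 had a promoter region, and their CPM summed to between 277 and 421 per library. Levels differed widely among them. The promoter of *Gata3*, which encodes a transcription factor required by ILC2s, held 41.8 to 56.6 CPM in all 10 libraries, against a median of 23.6 to 29.4 CPM over all promoters in the 5 tissues, while *Il7r*, *Il13*, and *Ptprc* lay between 11.1 and 20.6. *Il1rl1*, which encodes ST2, held 2.84 and 3.03 CPM in SI, 5.67 and 7.39 in LI, and 13.0 to 26.97 in the other tissues, and *Klrg1* held 7.58 and 8.70 in BM and 22.4 to 55.4 elsewhere. Of the lists of other cell types, 2 of 5 T cell, 1 of 5 B cell, 1 of 5 NK and ILC1, 1 of 5 myeloid, 2 of 5 epithelial, and 1 of 5 endothelial and stromal genes had a promoter region at all, and none of the 5 genes each of the ILC3, mast cell and basophil, and pancreatic acinar lists had one.

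Each region was tested for a difference among the 5 tissues with edgeR's quasi-likelihood F test on the raw counts, adjusted over all 49981 regions with a count. An adjusted p under 0.05 was found at 59 of the 103 regions outside *Dtx1* (57.3%), against 44.2% of all regions tested. Without SI, the same test over BM, LI, lung, and pancreas called 50 of the 107 regions (46.7%), against 35.9% of all regions. Of the 26 intergenic members 21 (80.8%) were called, against 47.9% of all intergenic regions, and 14 of these 21 lay at one locus, upstream of *Rbpj*. Of the 5 members at promoters 3 (60%) were called, against 31% of all promoters. Of the 72 intragenic members 35 (48.6%) were called, against 46.9% of all intragenic regions. The median range between the highest and the lowest tissue mean was 1.15 (log2 CPM) at the members outside *Dtx1* and 0.92 over all regions.

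Tissue-specific open regions (TS OCRs) had an unadjusted p under 0.05 in all 4 contrasts of a tissue and were higher there each time, and commonly decreased peaks were lower each time. BM had 12 decreased peaks among the 107 members, against 6.63% of all regions, and 5 TS OCRs, against 4.5%. SI had 7 decreased peaks among the 103 regions outside *Dtx1*, against 3.59%, and 3 TS OCRs, against 2.8%. Lung had 3 TS OCRs (background 1.3%) and 1 decreased peak (1.72%), and pancreas had 3 TS OCRs (1.43%) and 2 decreased peaks (0.572%). LI had 0 of either kind (1.3% and 0.132% of all regions) by edgeR and by DESeq2 on the 10 libraries, and it was the highest tissue at 9 of the 103 regions (8.74%), against 15.9% of all regions. Scaled by library size without TMM, BM had 3 TS OCRs and 18 decreased peaks, beside 1304 and 4095 of all 49981 regions. SI then had 4 and 3, beside 2619 and 1086 of all regions. The balance of calls in these tissues, at members and over all regions, thus depends on the scaling. It shifted the median of all regions by up to 0.25 (log2) between tissues. The decreased peaks of BM belonged to *Rbpj* (6 regions), *Notch1* (2), *Maml2* (2), *Notch2* (1), and *Nrarp* (1), and 4 of the 5 TS OCRs of BM belonged to *Maml3*.

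**Figure D1:**
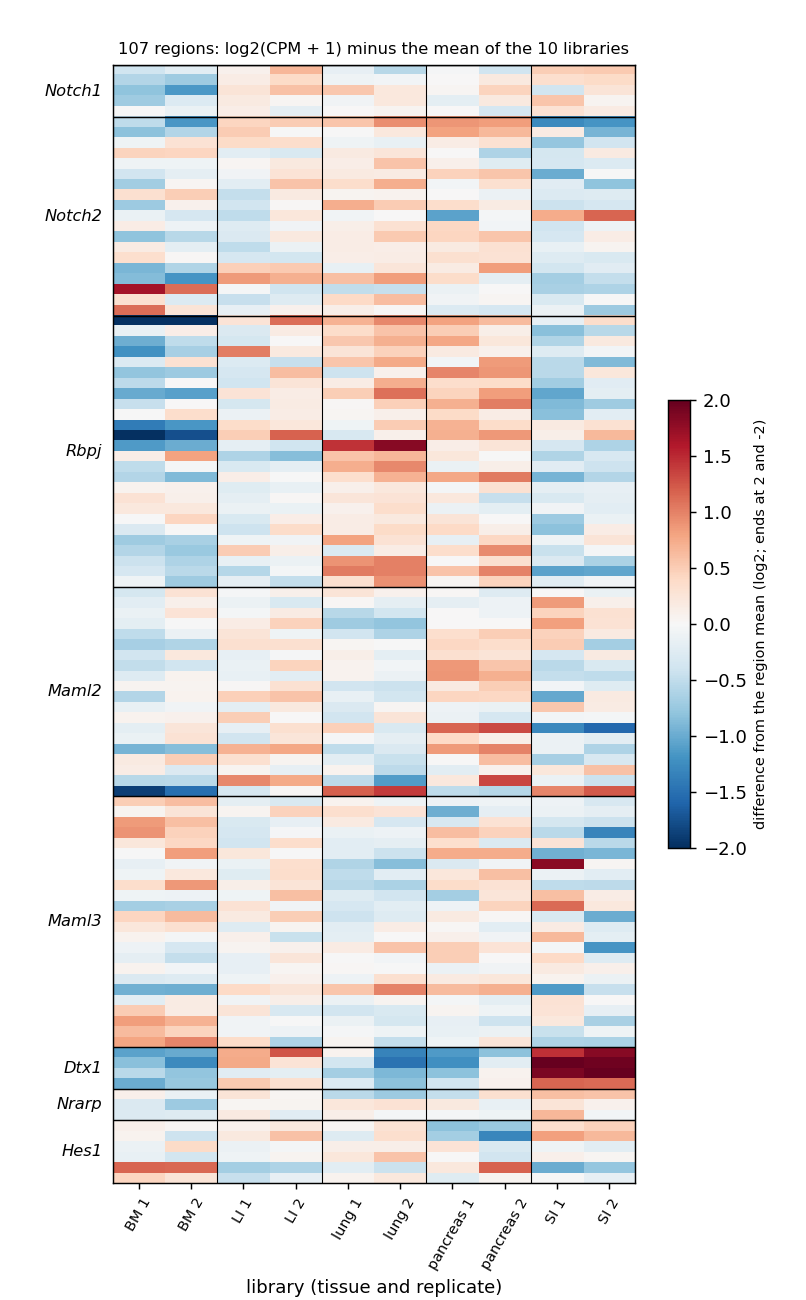
Heat map of the 107 regions (rows, by gene and position) in the 10 libraries (columns); color gives log2(CPM + 1) minus the mean of the region over the libraries. The 4 *Dtx1* rows are red in both SI libraries, several *Rbpj* rows are dark blue in both BM libraries, and *Maml3* has a row that is dark red in SI replicate 1 and near its mean in SI replicate 2.

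*Dtx1* lies on the minus strand of chromosome 5, and each of its 4 regions was highest in SI, the tissue by which the gene was chosen. In intron 2, 14.6 kb from the TSS (chr5:120696848-120697350), the libraries held 1.47 and 0.83 CPM in BM, 2.43 and 0.58 in lung, 0.88 and 2.80 in pancreas, 6.45 and 4.34 in LI, and 22.4 and 16.0 in SI. In intron 2, 2.6 kb from the TSS (chr5:120708866-120709366), they held 0.78 and 0.51 in BM, 0.63 and 0.39 in lung, 0.47 and 1.73 in pancreas, 1.22 and 1.26 in LI, and 8.57 and 11.0 in SI. Here the tissue nearest to SI was LI, and SI exceeded it 7.85-fold, more than at the other *Dtx1* regions. The intron 3 region (chr5:120685672-120686172) held 1.03 and 1.10 CPM in BM, 3.45 and 0.69 in lung, 0.94 and 1.40 in pancreas, 6.10 and 9.12 in LI, and 10.7 and 14.04 in SI. The promoter (chr5:120711340-120711922) held 3.52 and 4.33 in BM, 6.47 and 4.09 in lung, 5.89 and 8.52 in pancreas, 11.9 and 10.2 in LI, and 19.0 and 18.7 in SI. SI exceeded LI 1.61-fold in intron 3 and 1.71-fold at the promoter, and 3.60-fold at the 14.6 kb region. No SI library overlapped a library of another tissue in any of the 4 regions. The choice of the gene by its SI accessibility made this likely, so it is a description and no test.

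LI stood second at *Dtx1*, and this order did not enter the choice of the gene. Over BM, LI, lung, and pancreas, the edgeR F test gave an adjusted p of 0.00083 in intron 3, 0.004 at the promoter, and 0.011 at the intron 2 region 14.6 kb from the TSS. It gave 0.2 at the intron 2 region 2.6 kb from the TSS, where LI (mean 1.24 CPM) was near pancreas (1.10). In intron 3, LI was 7.17-fold higher than BM (log2 SE 0.54, edgeR adjusted p = 0.001), 6.75-fold higher than pancreas (SE 0.57, adjusted p = 0.014), and 3.81-fold higher than lung (SE 0.50, adjusted p = 0.019). At the promoter LI was 2.80-fold higher than BM (log2 SE 0.29, adjusted p = 0.0014) and 2.09-fold higher than lung (SE 0.28, adjusted p = 0.023). LI and pancreas differed 1.54-fold at the promoter without passing the test (adjusted p = 0.32). At the 14.6 kb region LI was 4.64-fold higher than BM (log2 SE 0.56, edgeR adjusted p = 0.0074) and 3.65-fold higher than lung (SE 0.54, adjusted p = 0.033), while the 3.12-fold difference from pancreas did not pass the test (adjusted p = 0.15). The 4-tissue call at this region did not hold without LI replicate 1 (adjusted p = 0.11) or by DESeq2 (adjusted p = 0.059). BM, lung, and pancreas did not separate by library in introns 2 and 3.

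Of the 8 promoter regions on the lists of other cell types, some were higher in SI than elsewhere. The *Cd79b* promoter, the only one of the B cell list with a region, held 8.52 and 6.79 CPM in SI and 1.41 to 4.18 in the other libraries. No region lay at the promoters of *Cd79a*, *Ms4a1*, and *Pax5*, which mark B cells. *Gzma* is a granule protease gene on the NK and ILC1 list that is not restricted to those cells, and the paper reports its mRNA as a feature of SI ILC2s. Its promoter held 6.02 and 6.27 CPM in SI and 0.30 to 1.74 elsewhere. No region lay at the other promoters of that list, *Eomes* and *Tbx21* included. *Spi1* of the myeloid list held 9.29 CPM in SI replicate 1, 2.19 in SI replicate 2, and 0.39 to 3.91 elsewhere. *Pdgfra* of the endothelial and stromal list held 13.8 and 11.98 CPM in SI, within its range of 11.3 to 17.9 over the other libraries. Of the T cell list, *Cd3e* held 5.25 and 4.77 CPM in SI, above its 2.35 to 4.43 elsewhere. *Cd3g* held 3.95 and 2.86 in SI, within its 1.32 to 5.93 elsewhere. The epithelial gene *Krt18* held 4.91 and 2.93 in SI and 1.16 to 4.36 elsewhere, and *Cdh1* held 6.26 and 4.88 against 2.89 to 9.49. The part of other cells in the *Dtx1* values was not tested.

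**Figure D2:**
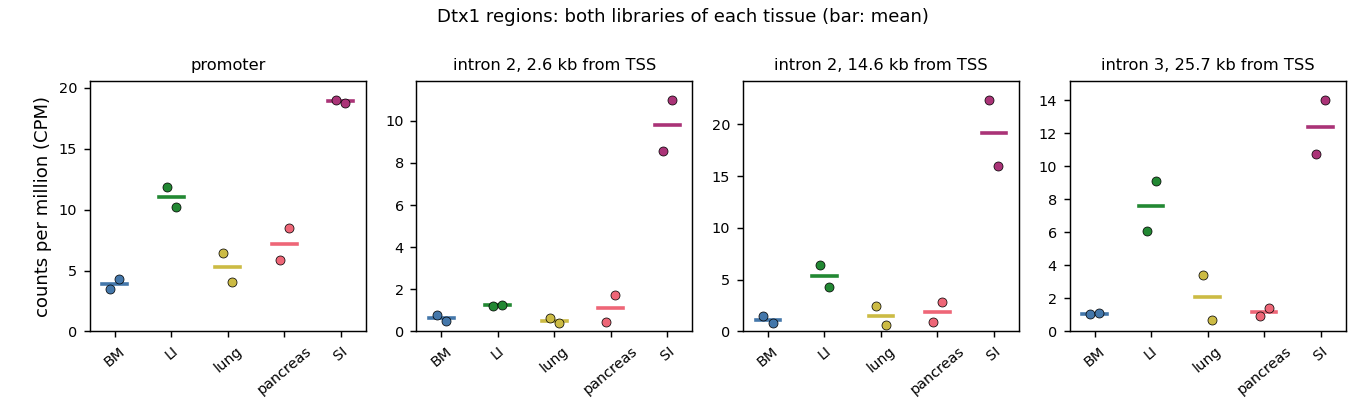
Accessibility (CPM, linear axis from 0) at the 4 *Dtx1* regions, from the promoter to intron 3; points are libraries and bars the mean of 2 libraries. Both SI points lie above all others in each panel, and LI lies above BM in each panel, by 2.80-fold at the promoter and 7.17-fold in intron 3.

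*Notch1* and *Notch2* encode receptors. At *Notch1* the region over the TSS (chr2:26503197-26503971, centre 238 bp downstream, named outside the rule for regions) held 24.7 to 38.8 CPM in all libraries and did not pass the 5-tissue test (edgeR adjusted p = 0.47). Inside intron 2, 5.6 kb from the TSS (chr2:26497989-26498524), the libraries held 3.57 and 2.62 CPM in BM, 10.6 and 8.20 in lung, 7.18 and 9.92 in pancreas, 8.54 and 11.0 in LI, and 5.15 and 8.50 in SI. Both BM libraries lay below all others, with a smallest log2 fold change of −1.15 ± 0.32 (SE) against SI (adjusted p = 0.015). A second intron 2 region, 10.4 kb from the TSS (chr2:26493088-26493733), held 4.45 and 4.0 CPM in BM, 6.74 and 6.93 in lung, 7.30 and 8.41 in pancreas, 8.11 and 9.77 in LI, and 9.34 and 9.68 in SI. BM was again lowest in both libraries, and its smallest log2 fold change was −0.69 ± 0.26 against lung, with an adjusted p of 0.073. The 5-tissue test gave adjusted p-values of 0.0044 and 0.012 at these regions, which rose to 0.07 without BM replicate 2 at the first and to 0.058 and 0.088 without BM replicates 1 and 2 at the second. An intron 1 region (chr2:26502227-26502727) held 3.52 and 5.15 CPM in BM and 5.48 to 9.87 in the other tissues and did not pass the test (adjusted p = 0.16). With library size alone its adjusted p was 0.045.

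*Notch2* contained regions of opposite patterns. The promoter (chr3:98013289-98013957) held 61.8 and 60.8 CPM in BM, 50.8 and 53.3 in lung, 45.3 and 28.9 in pancreas, 38.6 and 36.2 in LI, and 35.1 and 51.2 in SI. BM was highest in both libraries, but the 5-tissue adjusted p of 0.045 rose to 0.27 once the trend with GC content was removed, and to 0.18 without the trend with mean count. It was between 0.068 and 0.15 when a library of BM, LI, or lung, or replicate 2 of pancreas, was left out. The upstream region at 21.0 kb (chr3:97992202-97992813) held 5.92 and 3.41 CPM in BM, 13.5 and 17.7 in lung, 17.2 and 16.7 in pancreas, 12.3 and 13.0 in LI, and 3.08 and 3.34 in SI. BM and SI were low and did not differ beyond their spread (adjusted p = 0.19), whereas pancreas was 5.26-fold and LI 3.93-fold above SI (edgeR adjusted p = 3.2e-05 and 0.00054). A region in intron 4 (chr3:98079689-98080201) showed the same tissues low, with 1.96 and 1.38 CPM in BM, 7.21 and 8.61 in lung, 5.95 and 3.77 in pancreas, 8.72 and 7.86 in LI, and 2.36 and 2.89 in SI (5-tissue adjusted p = 0.00013). In intron 5 (chr3:98082121-98082621) the order turned, with 5.87 and 3.73 CPM in BM, 0.55 and 0.58 in lung, 1.00 and 1.19 in pancreas, 1.13 and 0.65 in LI, and 0.39 and 0.42 in SI. BM exceeded every other tissue there by at least 2.14 ± 0.52 on the log2 scale (adjusted p = 0.0076). These 2 regions lie 66.4 and 68.8 kb from the TSS. Across the gene, 12 of 19 regions (63.2%) passed the 5-tissue test, beside 44.2% of all regions.

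*Rbpj* encodes the DNA-binding protein of the pathway, and 19 of its 26 regions (73.1%) passed the 5-tissue test, beside 44.2% of all regions. It had no TS OCR of BM, LI, or SI, beside 4.5%, 1.3%, and 2.8% of all regions. The promoter region with the most counts (chr5:53589103-53589702) held 93.0 and 82.1 CPM in BM, 90.4 and 91.9 in lung, 88.7 and 55.1 in pancreas, 66.9 and 77.2 in LI, and 61.3 and 67.1 in SI. The tissues were not distinguished there (edgeR adjusted p = 0.2), nor at the second promoter region (chr5:53590073-53590754, adjusted p = 0.14). The 16 intergenic regions upstream lay between 12.1 and 141.9 kb from the nearest *Rbpj* TSS. Of these, 14 (87.5%) passed the test, beside 47.9% of all intergenic regions. Of the 10 regions at the promoters or inside the gene, 5 (50%) passed, beside 31% of all promoters and 46.9% of all intragenic regions. BM was the lowest tissue at 8 and SI at 7 of the 16, and the highest was lung at 9, pancreas at 5, and LI at 2. Over all regions, BM was lowest at 26.2% and SI at 20.6%, and lung was highest at 14.7%, pancreas at 16.9%, and LI at 15.9%. The division into upstream and other regions was made after the values were seen, and a region's nearest gene does not show which gene it acts on.

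The farthest upstream region (chr5:53413628-53414169) held 1.96 and 2.76 CPM in BM, 26.3 and 31.9 in lung, 28.3 and 25.0 in pancreas, 19.4 and 35.5 in LI, and 14.1 and 20.5 in SI. BM was at least 7.31-fold lower than any other tissue (log2 fold change −2.87 ± 0.32 against SI, edgeR adjusted p = 1.7e-05). At 50.1 kb upstream (chr5:53505389-53505919) the libraries held 1.86 and 2.48 CPM in BM, 8.43 and 11.6 in lung, 18.1 and 20.5 in pancreas, 15.5 and 25.6 in LI, and 11.8 and 17.4 in SI. BM was again below all others, by at least 4.60-fold (−2.2 ± 0.32 against lung, adjusted p = 0.00016). The region at 46.2 kb upstream (chr5:53509339-53509915) held 2.01 and 2.30 CPM in BM, 16.9 and 22.2 in lung, 6.18 and 6.90 in pancreas, 4.79 and 4.0 in LI, and 4.19 and 3.31 in SI. Both lung libraries lay above all others, at least 3.0-fold (1.58 ± 0.28 against pancreas, adjusted p = 0.0039). BM was lowest in both libraries, but its contrast with SI did not pass (edgeR adjusted p = 0.058). Thus these 3 upstream regions of *Rbpj*, picked for their wide range, ranked the peripheral tissues in different orders, with BM lowest at each. BM was the lowest tissue at 8 of all 16 upstream regions. Among the other upstream regions, BM was decreased at 52.2 kb (0.78 and 1.10 CPM against 3.45 to 6.60 elsewhere) and, by the unadjusted rule alone, at 117.8 kb (0.29 and 0.87 against 1.49 to 5.06, largest adjusted p = 0.057). SI was decreased by the unadjusted rule at 134.5, 65.7, and 64.9 kb upstream, with largest adjusted p-values of 0.066, 0.093, and 0.15 over the contrasts.

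**Figure D3:**
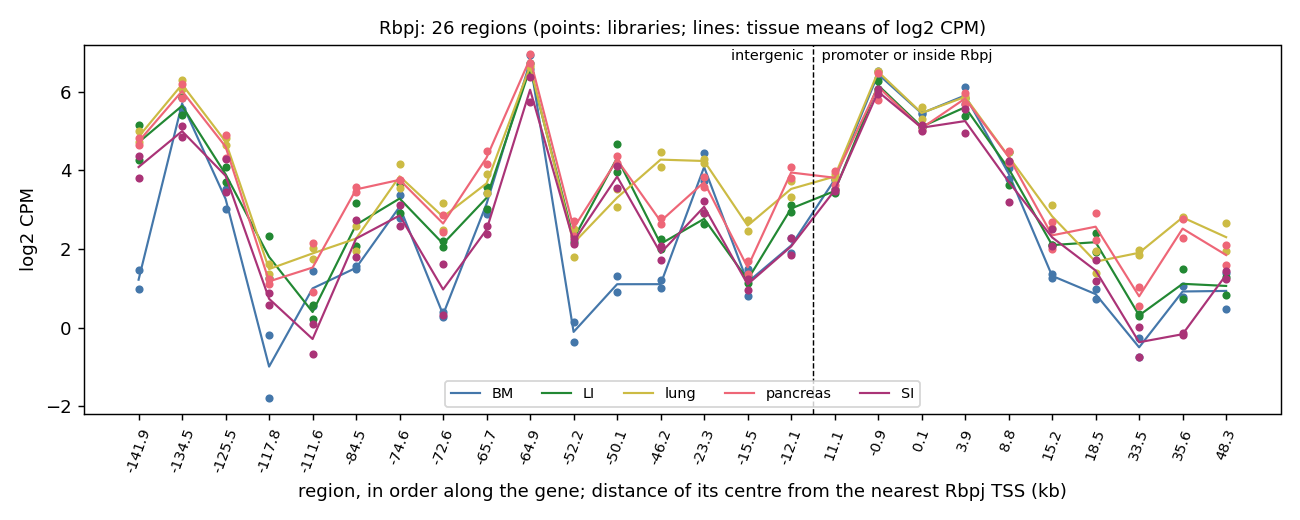
The 26 *Rbpj* regions in genomic order (x axis: distance of the centre from the nearest *Rbpj* TSS in kb, evenly spaced); points are log2 CPM of each library and lines the tissue means. Lines run close together at the promoters and the first regions inside the gene, and the BM line drops at 141.9, 52.2, and 50.1 kb upstream.

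*Maml2* and *Maml3* encode coactivators that bind the complex of RBPJ and Notch. *Maml2* on chromosome 9 had 9 of 20 regions (45%) that passed the 5-tissue test, near the 44.2% of all regions. Both regions flanking its TSS did not pass (edgeR adjusted p = 0.76 at 1.3 kb upstream and 0.072 in exon 1). The largest difference of the gene lay in intron 3 (chr9:13701675-13702177), with 0.49 and 0.92 CPM in BM, 11.6 and 13.4 in lung, 2.83 and 2.70 in pancreas, 3.31 and 4.56 in LI, and 9.73 and 11.7 in SI. Lung and SI were high and did not differ beyond their spread (adjusted p = 0.67), LI and pancreas were intermediate (adjusted p = 0.52 between them), and BM was lowest. Lung was 17.46-fold above BM (adjusted p = 3e-06) and 4.50-fold above pancreas (adjusted p = 0.0015). An intron 1 region (chr9:13476366-13476871) had another order, with 2.69 and 4.0 CPM in BM, 4.86 and 2.43 in lung, 8.48 and 9.60 in pancreas, 2.79 and 4.26 in LI, and 0.72 and 0.42 in SI. It was both a TS OCR of pancreas and a decreased peak of SI, and pancreas exceeded SI by 4.0 on the log2 scale (5-tissue adjusted p = 0.00011). A further intron 1 region (chr9:13608512-13609053) held 1.91 and 1.93 CPM in BM, 1.96 and 0.97 in lung, 3.95 and 9.81 in pancreas, 7.32 and 6.17 in LI, and 2.94 and 2.16 in SI. LI and pancreas had the same mean within their spread (log2 difference −0.01 ± 0.43), and LI was 4.65-fold above lung (adjusted p = 0.0047).

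*Maml3* on chromosome 3 had 12 of 24 regions (50%) past the 5-tissue test, beside 44.2% of all regions. BM was its highest tissue at 11 regions, beside 28.8% of all regions. TS OCRs of BM made up 4 of the 24, beside 4.5% of all regions. The promoter (chr3:52104749-52105331) held 27.8 and 24.4 CPM in BM, 17.3 and 16.5 in lung, 15.8 and 16.2 in pancreas, 16.7 and 16.4 in LI, and 12.8 and 16.7 in SI. Both BM libraries lay above all others, by at least 0.63 ± 0.21 on the log2 scale against lung (edgeR adjusted p = 0.048), but the 5-tissue adjusted p of 0.022 became 0.086 without the GC trend and 0.058 with library size alone. It was 0.21 without BM replicate 1, 0.069 without BM replicate 2, and 0.051 without lung replicate 2. A region 75.0 kb upstream (chr3:52179740-52180240) held 3.96 and 4.65 CPM in BM, 1.96 and 1.05 in lung, 1.71 and 2.37 in pancreas, 2.70 and 0.87 in LI, and 0.87 and 0.84 in SI. Both BM libraries were the highest, but BM did not pass against LI (edgeR adjusted p = 0.066) or pancreas (0.14). The 5-tissue adjusted p was 0.017, and this call did not hold without BM replicate 1 or without BM replicate 2. In intron 2 (chr3:51759474-51760009) the libraries held 5.09 and 9.85 CPM in BM, 4.27 and 3.51 in lung, 9.25 and 9.17 in pancreas, 6.10 and 5.04 in LI, and 2.12 and 2.23 in SI (5-tissue adjusted p = 0.00098). Both SI libraries lay below all others, but the 1.78-fold contrast of SI with lung did not pass (edgeR adjusted p = 0.095). A further intron 2 region (chr3:51765226-51765726) held 11.8 CPM in SI replicate 1 and 2.75 in SI replicate 2, against 1.02 to 3.61 in the other libraries. Its SI call rested on that library, and the 5-tissue adjusted p of 0.0072 became 0.16 without it.

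**Figure D4:**
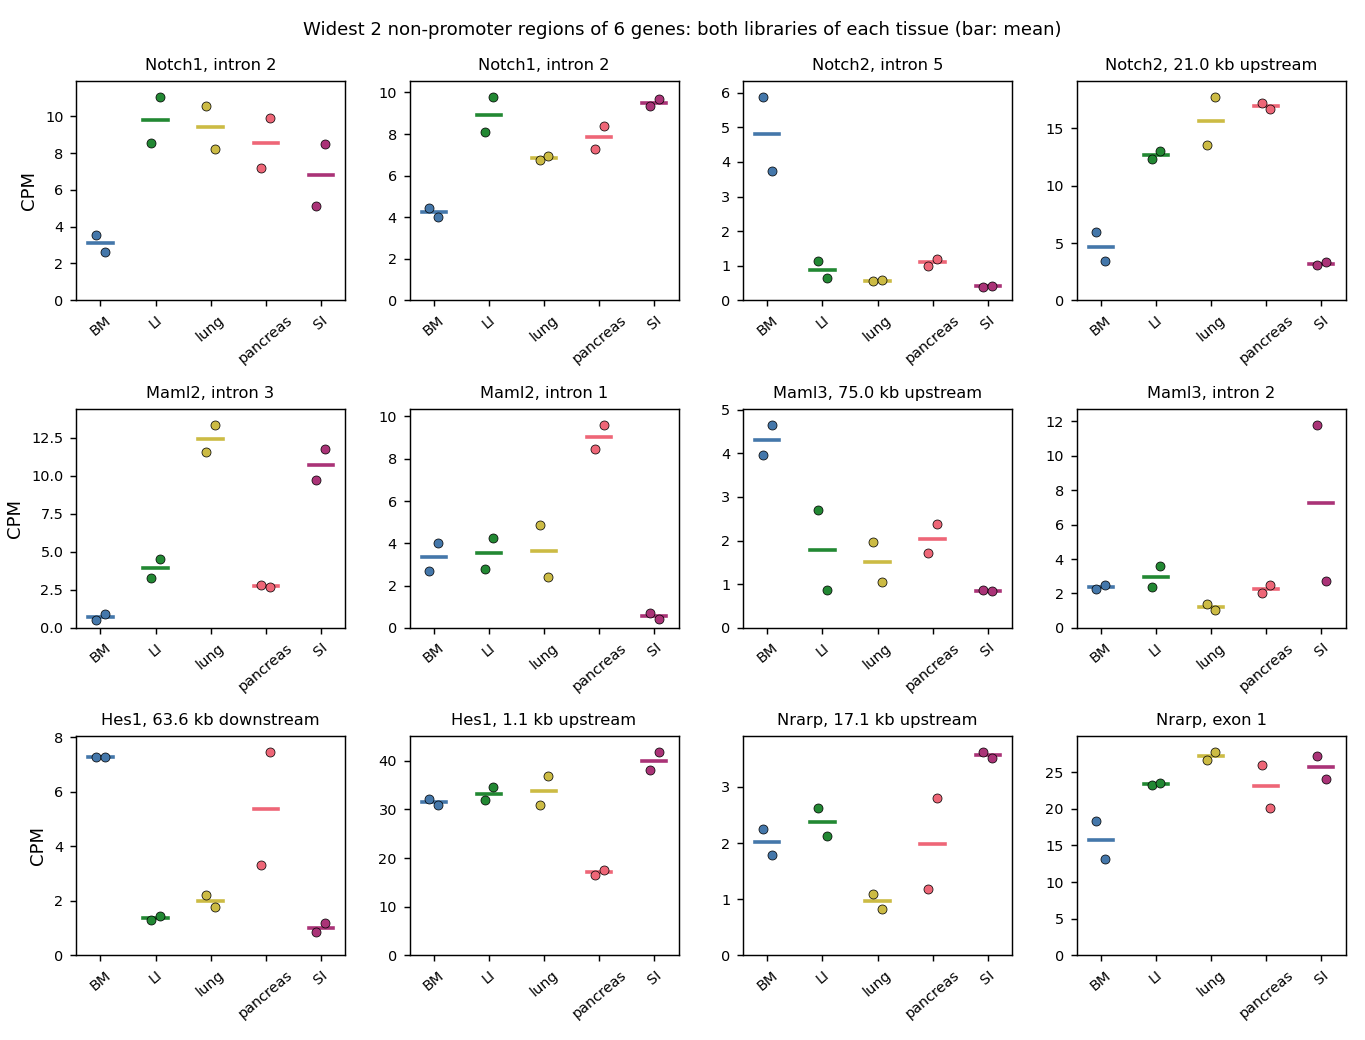
Accessibility (CPM, linear axes from 0, a scale for each panel) at the 2 regions outside promoters with the widest range between tissue means, for 6 genes; points are libraries and bars means of 2 libraries. BM is lowest in both *Notch1* panels and highest at *Notch2* intron 5, pancreas is lowest 1.1 kb upstream of *Hes1*, and the SI points of *Maml3* intron 2 lie far apart.

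*Hes1* and *Nrarp* are target genes. *Hes1*, on chromosome 16, encodes a repressor of the basic helix-loop-helix family. Its promoter region (chr16:30064998-30065505) contained 2 RBPJ cores, which began 97 and 83 bases before the TSS, the first of them in the extended form. The libraries held 21.5 and 15.1 CPM in BM, 17.1 and 25.97 in lung, 12.4 and 7.66 in pancreas, 23.7 and 31.3 in LI, and 36.8 and 32.8 in SI. Pancreas was lowest in both libraries, with a log2 fold change of −0.85 ± 0.28 against BM (edgeR adjusted p = 0.038), the nearest tissue, and SI was highest. The region 1.1 kb upstream (chr16:30063995-30064560) held 32.2 and 30.9 CPM in BM, 30.9 and 36.7 in lung, 16.6 and 17.6 in pancreas, 31.8 and 34.6 in LI, and 38.0 and 41.7 in SI. Pancreas was lower than each other tissue there too (−0.89 ± 0.19 against BM, adjusted p = 0.012). These were the 2 decreased peaks of pancreas among the members. By contrast, the region over the last exon (chr16:30066655-30067191, named outside the rule) held 28.3 to 46.2 CPM without a difference past the test (5-tissue adjusted p = 0.67).

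A distal region of *Hes1*, 63.6 kb downstream (chr16:30128721-30129221), held 7.29 and 7.27 CPM in BM, 2.2 and 1.77 in lung, 3.30 and 7.44 in pancreas, 1.31 and 1.43 in LI, and 0.87 and 1.18 in SI. BM was 7.0-fold above SI and 5.26-fold above LI (adjusted p = 0.00022 and 0.00073), whereas BM and pancreas were not distinguished (adjusted p = 0.41). A region 80.3 kb downstream (chr16:30145380-30145902) ranged from 3.31 to 7.0 CPM and did not pass the test (adjusted p = 0.22).

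At *Nrarp*, on chromosome 2, the region over the single exon and its TSS (chr2:25180558-25181184) held 18.4 and 13.2 CPM in BM, 26.7 and 27.7 in lung, 25.97 and 20.2 in pancreas, 23.3 and 23.5 in LI, and 27.3 and 24.0 in SI. Both BM libraries were below all others, and the 5-tissue adjusted p was 0.055, near the threshold, with 0.018 under library size alone and 0.0098 without the GC trend. The region 17.1 kb upstream (chr2:25163358-25163858) held 2.25 and 1.79 CPM in BM, 1.10 and 0.83 in lung, 1.18 and 2.80 in pancreas, 2.62 and 2.13 in LI, and 3.61 and 3.52 in SI. SI was the highest tissue in both libraries, and the 5-tissue adjusted p was 0.04. Of the SI contrasts only that with lung passed (3.71-fold, edgeR adjusted p = 0.0084). Those with BM, LI, and pancreas had adjusted p-values of 0.21, 0.45, and 0.2. The 5-tissue call did not hold when any library other than those of pancreas was left out. The region 5.2 kb downstream (chr2:25185685-25186262) held 4.89 to 10.3 CPM (adjusted p = 0.37).

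Summed over all regions of a gene, accessibility ranked the tissues in several orders, given here as a description. *Dtx1*, chosen by its SI accessibility, had the widest spread. It held 6.80 and 6.76 CPM in BM, 13.0 and 5.74 in lung, 8.19 and 14.5 in pancreas, 25.6 and 24.9 in LI, and 60.7 and 59.8 in SI. LI and SI stood apart, and BM, lung, and pancreas overlapped. *Notch1* went from 59.0 CPM in both BM libraries to 94.4 and 92.0 in SI, with 82.0 and 90.3 in LI, while lung and pancreas overlapped between 66.9 and 74.4. *Nrarp* had the same ends of the order by tissue mean, with 25.5 and 20.0 CPM in BM and 41.1 and 33.4 in SI. Both lung libraries (34.5 and 34.4) lay above SI replicate 2, so SI was not set apart. *Hes1* was lowest in pancreas, with 97.5 and 79.9 CPM against 110 to 137 in the other tissues, which overlapped.

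*Rbpj* and *Notch2* shared lung as the highest and SI as the lowest tissue by mean. *Rbpj* held 564 and 639 CPM in lung, 610 and 534 in pancreas, 419 and 525 in LI, 423 and 491 in BM, and 318 and 416 in SI. *Notch2* held 229 and 249 in lung, 242 and 221 in pancreas, 208 and 204 in BM, 188 and 214 in LI, and 143 and 188 in SI. Lung and pancreas overlapped at both genes, and at *Notch2* SI replicate 2 was near LI replicate 1. *Maml3* was highest in BM, at 269 and 279 CPM, and the other tissues ranged from 178 to 247. *Maml2* ranged only 1.29-fold between tissue means, and its highest tissue was pancreas with TMM but SI with library size alone. The highest tissue of the other 7 genes was the same under both scalings.

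**Figure D5:**
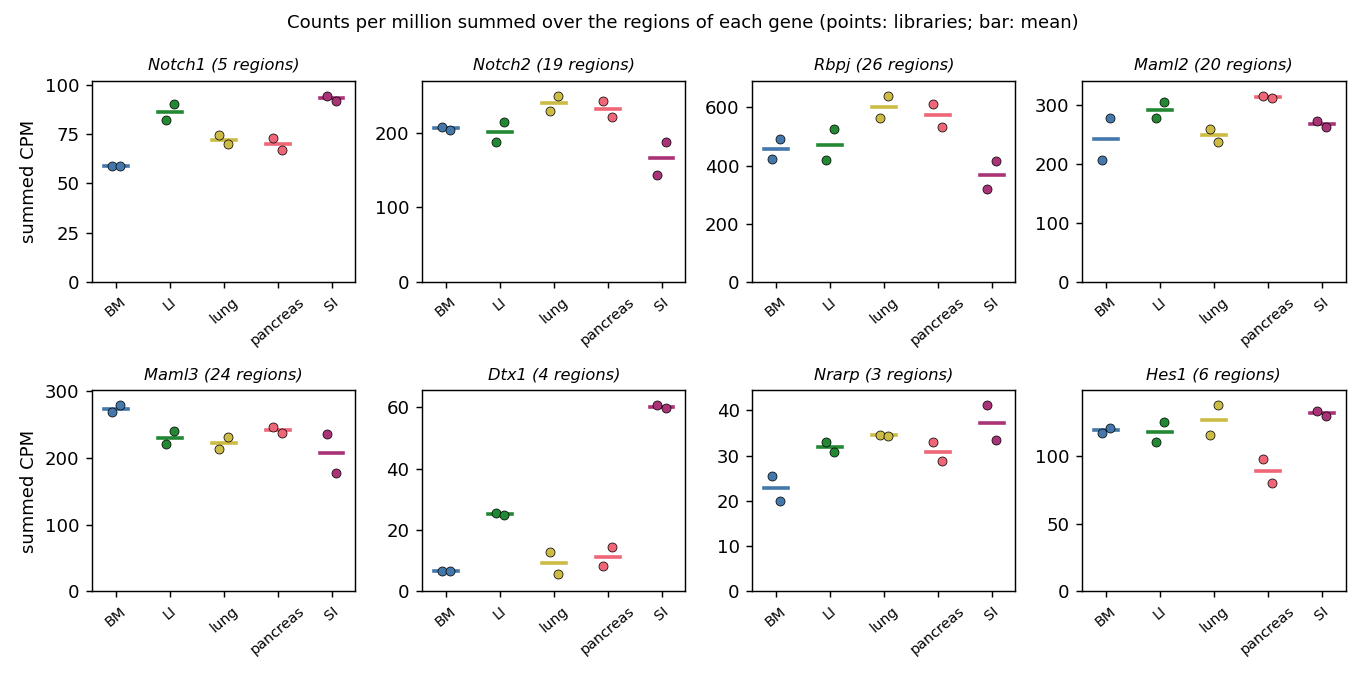
CPM summed over all regions of each gene (linear axes from 0, a scale for each panel); points are libraries and bars means of 2 libraries. SI is far above the other tissues at *Dtx1*, pancreas is lowest at *Hes1*, and BM is lowest at *Notch1* and *Nrarp*.

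The rest of the pathway was read from a list of 52 further genes (ligands, other receptors, processing, turnover, nuclear cofactors, and targets), of which 50 had 245 regions. The 5-tissue test was passed by 124 of these (50.6%), beside 44.2% of all regions, and their median range between tissues was 0.91 (log2 CPM), beside 0.92 over all regions. Read against that 44.2%, ligand genes had 12 of 16 regions past the test (75%). The region with the smallest p lay 120 kb upstream of *Jag1*, a ligand gene (chr2:137236214-137237404), and held 1.17 and 2.48 CPM in BM, 17.1 and 20.0 in lung, 8.89 and 10.0 in pancreas, 23.0 and 41.1 in LI, and 9.97 and 7.59 in SI (edgeR adjusted p = 4.8e-06). LI was highest and BM lowest in both libraries, and 4 of the 16 ligand regions were TS OCRs of LI, beside 1.3% of all regions.

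Turnover genes had 14 of 39 regions past the test (35.9%), led by intron 3 of *Fbxw7*, which encodes the substrate receptor of a ubiquitin ligase for the Notch intracellular domain. There (chr3:84885158-84885658) BM held 11.3 and 13.3 CPM, against 1.02 to 3.88 in the other libraries (adjusted p = 2e-05). Nuclear cofactor genes had 29 of 49 (59.2%). Processing genes had 21 of 44 (47.7%), led by intron 12 of the protease gene *Adam17* (chr12:21335763-21336373), with 4.11 and 5.80 CPM in BM and 8.09 to 20.5 elsewhere (adjusted p = 0.00063). Target genes had 46 of 92 (50%), and the smallest p was at a region 102 kb downstream of the *Gata3* TSS (chr2:9775886-9776477), with 39.1 and 28.1 CPM in LI and 1.38 to 9.49 elsewhere (adjusted p = 5e-07). The other receptor genes had 2 of 5 (40%), led by exon 30 of *Notch3* (chr17:32133296-32133796), with 3.29 and 3.40 CPM in lung, 2.59 and 5.07 in pancreas, and 1.31 to 1.83 elsewhere (adjusted p = 0.027).

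Regions with a pattern like that of *Dtx1* intron 2 were sought by Pearson's correlation of log2 CPM over the 10 libraries with the region 2.6 kb from the TSS, among 49977 regions with a mean of at least 1 CPM. The other *Dtx1* regions had values of 0.929 (intron 2), 0.887 (promoter), and 0.797 (intron 3). This profile is the one by which *Dtx1* was chosen. Outside *Dtx1*, 181 of all these regions lay above 0.9. The highest of the 103 regions of the other Notch genes was the *Nrarp* region 17.1 kb upstream, at 0.834. The most alike regions had their nearest TSS at *Fkbp11* (0.987), *As3mt* (0.970), *Dleu7* (0.968), *Mras* (0.964), and *Magef1* (0.964). All points share the same libraries, and with Spearman's correlation 0 of these 5 regions were among the 5 highest.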

How the data were processed

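The authors aligned ATAC-seq reads to mm10 with Bowtie2 2.2.9, called peaks with MACS2 2.1.1, merged the peaks of the 5 tissues, and deposited raw counts at 50039 merged regions for 10 libraries, without normalization. FastQC 0.11.9, SAMtools 1.8, and DESeq2 are also named in the submitters' processing notes. Removal of duplicates, a mitochondrial filter, and a Tn5 shift are not given in the sources used here. The SE values given come from the fit and take in the spread between libraries. PCR reads are not independent molecules.

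The 8 genes, the wider gene lists, the motifs, and the tests were chosen with earlier results of these data known. From the deposited counts, all 49981 regions with at least 1 count were fitted with edgeR 4.0.16 (R 4.3.3; TMM, glmQLFit, glmQLFTest, tissue as the only factor), with Benjamini-Hochberg adjustment over all of them. CPM were TMM-scaled, log2 CPM used a prior count of 2, and fold changes came from the fit with their SE. The main test was checked on simulated counts. A promoter spanned the 1000 bp before and the 100 bp after a curated RefSeq TSS (GRCm38.p6, the reference used for sequences). Introns and exons were numbered in the curated transcript with the most exons. Values were given for the promoter and the 3 other regions with the widest range of tissue means (mean of at least 1 CPM) for each gene, and for all *Dtx1* regions. Other regions named were picked after their values were seen. The leading region of the nuclear cofactor list is not reported here. Coordinates of regions are as the table gives them, and those of sequences count from 1. DESeq2 1.42.0, other scalings, filters, trends (loess, span 0.3), thinning, a block, and left-out libraries were alternatives.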

Additional observations from a re-analysis of the deposited data

How the results depend on the processing

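The 29 named regions kept their direction between highest and lowest tissue under each alternative fit. Most of them were picked by a wide range in these same libraries, so a reversal was unlikely and this result does not test their order. Among fits on all libraries, 6 region results lost and 6 gained an adjusted p under 0.05 and 220 kept their side, and with a library left out 25 lost, 3 gained, and 262 kept it. With DESeq2 on the 10 libraries, DESeq2's size factors, a filter at 10 counts in 2 libraries, and removal of the mean count or GC trend, the counts of member regions past the 5-tissue test (59) and the 4-tissue test (50), of TS OCRs (14, without *Dtx1* in SI), and of decreased peaks (22) stayed within 1.5 times. With an adjusted p in each contrast 5 TS OCRs and 8 decreased peaks were left. Of these peaks 5 were in BM, out of 107 members, beside 2054 in BM out of all 49981 regions. DESeq2 on the 4 libraries of each pair gave 11 decreased peaks, 6 in BM, beside 2357 in BM over all regions. With only regions inside a gene or its promoter, 81 regions of the 8 genes were left, *Dtx1* included. Outside *Dtx1*, 38 passed the 5-tissue test, 3 of 5 at promoters and 35 of 72 intragenic. Over all regions, 31% of promoters and 46.9% of intragenic regions passed. There were 13 decreased peaks, 7 of them in BM, beside 6.63% of all regions, intergenic ones included, decreased in BM. Of the wider regions 79 passed. Leaving out each library in turn gave 41 to 64 regions past the 5-tissue test, 31 to 57 past the 4-tissue test, 85 to 136 wider regions, 7 to 17 TS OCRs, 14 to 25 decreased peaks, and 8 to 14 of these in BM. The lone library of a tissue is then assumed to vary like the others. Without BM replicate 1 the fewest regions passed the 4-tissue test, among members as over all regions. Member TS OCRs were fewest without lung replicate 2 and also fell without pancreas replicate 1. Member decreased peaks were fewest without LI replicate 2. The cause was not tested.

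Same-numbered libraries did not deviate together (correlations of deviations from tissue means −0.218 to 0.196), so the numbers were not treated as pairs. With the replicate block, 61 member regions passed the 5-tissue test, 51 the 4-tissue test, and 126 wider regions the 5-tissue test, and there were 14 TS OCRs and 24 decreased peaks, 14 of them in BM. With 2 libraries per tissue and 1 CPM standing for as few as 9.27 reads, differences at regions of low counts were detectable only where they were large.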
